A study of Mus musculus with 6 samples.

Results

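En2, Cnpy1 and 5 further genes of the midbrain-hindbrain boundary (En1, Pax2, Pax5, Pax8 and Gbx2) were followed across 6 microarrays of mouse brain. A probe set is a group of short probes that together read 1 transcript, or in some cases more than 1. Members were the probe sets whose platform annotation names 1 of the 7 genes. There were 10 such probe sets of 45101 on the array, and they covered 6 of the 7 genes: Cnpy1 had 3, Pax5 and Pax8 had 2 each, En1, En2 and Gbx2 had 1 each, and no probe set used here is annotated to Pax2. The genes were picked with the difference between reeler models and other arrays in view, above all for En2 and Cnpy1. That difference is therefore given as a description, and the members carry no test of it.

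Each array measured total RNA from 1 frontal cortical lobe, as labelled, of a mouse aged 21 days on a mixed C57BL/6 and 129 background. A cross of mice heterozygous for both receptors gave the arrays labelled WT, VLDLR KO, APOER2 KO and APOER2-VLDLR KO, and the DAB1 KO and REELIN KO arrays came from separate crosses with no control array of their own. DAB1 KO, REELIN KO and APOER2-VLDLR KO lack the Reelin signal through its adaptor, its ligand or both of its receptors, and are called reeler models here; WT, VLDLR KO and APOER2 KO are called comparison arrays. The labels give neither the alleles nor the deleted part of each gene, and they say that mice were recognised by their phenotype. With 1 array for each genotype there is no replicate of any genotype, and every spread between arrays of a class includes the difference between genotypes. Precision is limited by this small number of arrays.

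The isthmus, the constriction between midbrain and hindbrain, organises both regions in the embryo. Its cells secrete FGF and WNT signals, and the homeodomain factors En1, En2 and Gbx2 and the paired-box factors Pax2, Pax5 and Pax8 set its position and keep it active. After birth En2 remains on in granule neurons of the cerebellum, whereas En1 is known from dopamine neurons of the midbrain and Gbx2 from the thalamus. Cnpy1 encodes a canopy protein of the endoplasmic reticulum, known from zebrafish as a promoter of FGF receptor signalling at the boundary.

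Reln read 79.9 on the REELIN KO array and 1498 to 1880 on the other 5, and Lrp8, which encodes Apoer2, read 4.2 and 13.7 on the arrays labelled APOER2 KO and APOER2-VLDLR KO against 342.4 to 379.8 elsewhere. Vldlr read 187.3 on VLDLR KO and 185.6 on APOER2-VLDLR KO against 357.6 to 551.6. Dab1 read 478.5 on DAB1 KO against 516.4 to 626.0, so that array's label is less clearly borne out. All animals are labelled male, yet Xist, expressed from the inactive X of females, read 3368 to 4006 on 5 arrays and 124.9 on APOER2 KO. The Y-linked gene Eif2s3y read 367.5 on APOER2 KO and at most 7.7 elsewhere. Cerebral cortex markers such as Neurod6 (433.6 to 687.6) and Tbr1 (330.4 to 403.5), both transcription factors of cortical excitatory neurons, were present on all arrays. So were markers of the cerebellum: Pcp2, a Purkinje cell gene, read 1829 to 2817.

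Of the members that differed between classes, a promoter window was at hand for Cnpy1, and its 2 annotated starts are shown because all 3 Cnpy1 probe sets separated the classes. The sequences are RefSeq's for GRCm38.p6, 250 bases before to 50 after the start, on the minus strand of chromosome 5, read 5′ to 3′, at chr5:28245739-28246038 and chr5:28210119-28210418. Capitals mark matches on either strand to TAATTA or TAATTG, core sites of homeodomains of the Engrailed kind, and to CAGATG or CAGCTG, E-box forms bound by factors such as Neurod1 and Atoh1.
Cnpy1 outer start: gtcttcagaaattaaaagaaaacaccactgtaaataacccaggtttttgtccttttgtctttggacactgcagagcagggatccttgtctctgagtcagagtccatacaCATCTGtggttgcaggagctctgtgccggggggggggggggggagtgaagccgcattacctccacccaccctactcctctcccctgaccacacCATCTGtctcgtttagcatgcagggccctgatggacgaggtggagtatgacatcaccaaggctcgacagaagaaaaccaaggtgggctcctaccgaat
Cnpy1 inner start: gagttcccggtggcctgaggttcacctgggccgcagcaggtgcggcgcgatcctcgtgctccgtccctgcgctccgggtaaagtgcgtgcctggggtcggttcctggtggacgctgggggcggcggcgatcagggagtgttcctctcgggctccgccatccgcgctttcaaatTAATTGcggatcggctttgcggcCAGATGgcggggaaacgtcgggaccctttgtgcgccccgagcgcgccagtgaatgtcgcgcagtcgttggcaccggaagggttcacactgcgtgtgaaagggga

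The outer window held 2 matches to CAGATG, at -141 and -48 from the start, and the inner window held 1 match to TAATTG at -77 and 1 to CAGATG at -54. Among 32851 promoter windows of the same 300 bases, 5.29% held TAATTA, 8.0% TAATTG, 17.2% CAGATG and 16.3% CAGCTG. The matches describe letters in these windows and no binding was measured. GC content was 53.0% in the outer and 66.3% in the inner window, where the median of all windows was 52.7%.

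En2, the Engrailed gene of the postnatal cerebellum, separated the comparison arrays from the reeler models. Its signal, in MAS5 units on a linear scale, was 402.1 on WT, 301.7 on VLDLR KO and 383.5 on APOER2 KO, and 100 on DAB1 KO, 109.8 on REELIN KO and 74.4 on APOER2-VLDLR KO. The lowest comparison array thus lay far above the highest reeler model, and the classes did not overlap. Class means were 362 ± 53.4 (SD, n = 3) and 94.7 ± 18.3 (SD, n = 3). Folds are taken from log2(signal + 28.1), the added constant being the lower quartile of the signals, a scale that understates changes of dim genes. The reeler models minus the comparison arrays gave a log2 difference of -1.67, or 3.18-fold lower. The 3 reeler arrays were 3.03-fold (DAB1 KO), 2.81-fold (REELIN KO) and 3.79-fold (APOER2-VLDLR KO) below the comparison mean, and 0.487%, 0.765% and 0.409% of all genes past the signal filter described below were at least 2-fold below it on these arrays. On every array the signal was above the highest of 27 bacterial control probe sets, which serve as a measure of background and read at most 28.4 to 39.6 by array.

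Cnpy1 separated the arrays in the same way at each of its 3 probe sets. The brightest, 1437996_s_at, whose suffix marks probes that match more than 1 transcript, read 522.0, 406.7 and 464.4 on WT, VLDLR KO and APOER2 KO and 73.7, 96.8 and 32.2 on DAB1 KO, REELIN KO and APOER2-VLDLR KO. The last of these values lay just above that array's highest bacterial control, 31.2, and is a bound more than a level. The log2 difference was -2.42 (5.36-fold lower). At 1455471_at the signals were 344.0, 315.0 and 342.1 against 62.9, 82.8 and 44.2, with a log2 difference of -2.01. At 1456127_at they were 328.2, 264.9 and 286.0 against 81.4, 93.3 and 59.6, with a log2 difference of -1.60. The size of the difference therefore depended on the probe set, from 3.04-fold to 5.36-fold, while its direction did not.

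**Figure D1:**
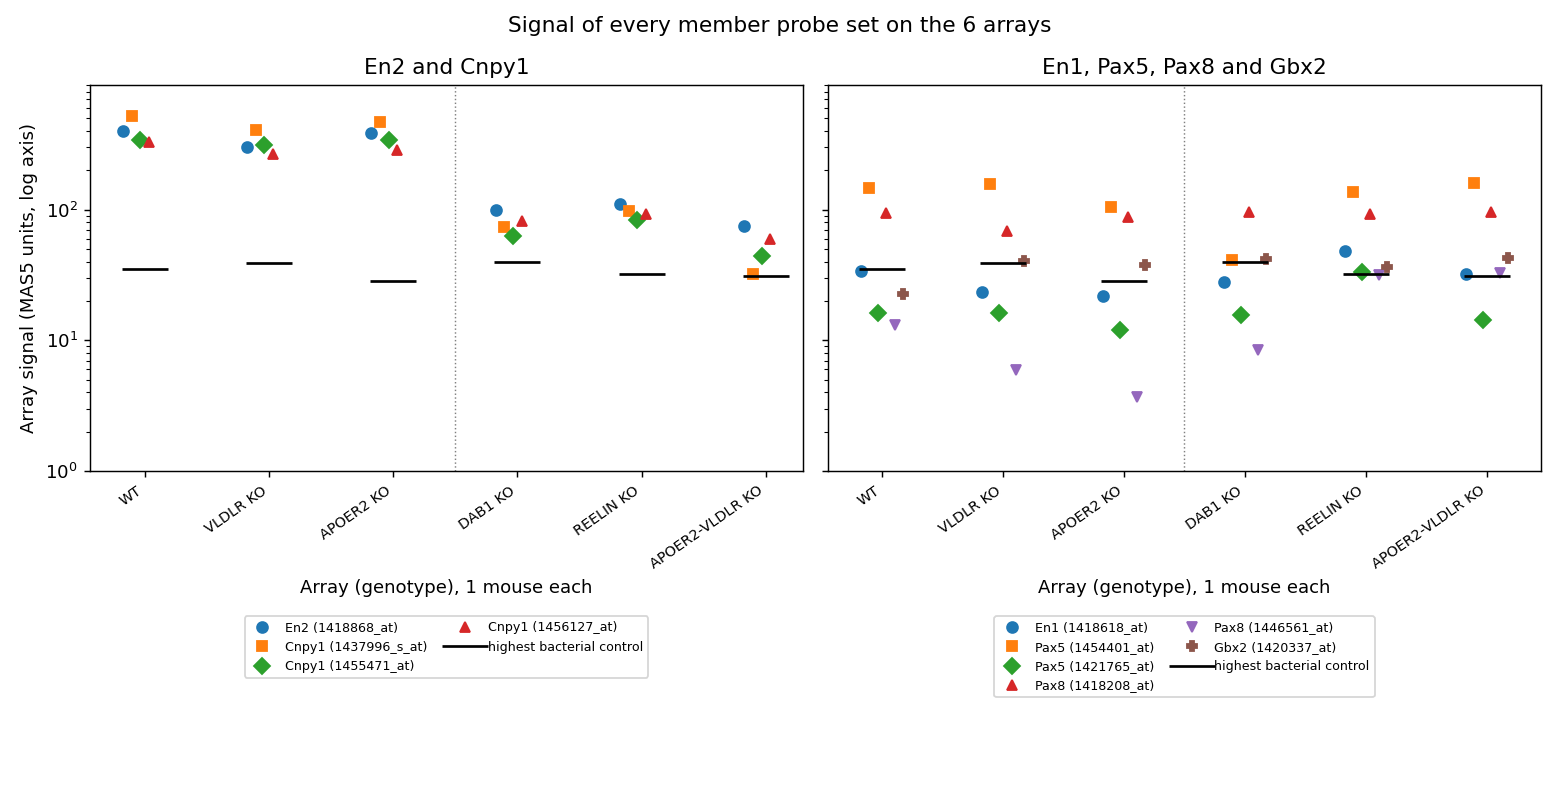
Signal (MAS5 units, log axis) of each of the 10 member probe sets on the 6 arrays, 1 point per array, with a bar at the array's highest bacterial control; the dotted line parts the comparison arrays from the reeler models. En2 and the 3 Cnpy1 probe sets read 264.9 to 522.0 on the comparison arrays and 32.2 to 109.8 on the reeler models, and the other 6 probe sets overlapped between classes.

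These 4 probe sets, of the 10, were the ones whose classes did not overlap, all lower in the reeler models. Over all 45037 probe sets other than array controls, 7.24% had reeler models entirely below the comparison arrays. Because En2 and Cnpy1 were chosen on this contrast, nothing is read from the difference between these shares. For the whole table, limma called 15 of 11498 genes (0.130%) at an adjusted p of 0.05, 13 of them lower in the reeler models (0.113%) and 2 higher (0.0174%); 1 gene was called without the WT array and 22 without the DAB1 KO array. All 3 reeler arrays were at least 2-fold below the comparison mean for 14 genes (0.122%), among them En2 and Cnpy1.

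The 4 probe sets also ranked the 6 arrays identically. From high to low the order was WT, APOER2 KO, VLDLR KO, REELIN KO, DAB1 KO and APOER2-VLDLR KO for En2 and for each Cnpy1 probe set. Across 11498 genes with enough signal, 35 (0.304%), En2 and Cnpy1 included, had that order. The order contains the split between classes on which the pair was chosen, and 997 genes (8.67%) had that split. Of the 4 probe sets, 3 read the same gene, so nothing is read from the shared order. Also among the 35 were Cbln3 and Fat2 of the granule cell list and Tfap2b of the list of cerebellar interneurons and Bergmann glia. The remaining genes of both lists with enough signal, Gabra6 and Gdf10 among them, had other orders. Within the comparison arrays, neighbours in the order were close: En2 on APOER2 KO differed from WT by -0.064 and Cnpy1 (1455471_at) by -0.0074 on the log2 scale. VLDLR KO was the lowest of these 3, at -0.38 from WT for En2 and -0.34 for Cnpy1 (1437996_s_at). With no replicate of any genotype, the steps within a class have no error of their own.

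The members other than En2 and Cnpy1 did not separate the classes. Of 6 member genes on the array, En2, Cnpy1, Pax5 and Pax8 passed the signal filter, a mean signal of at least 89.0, which is the median over probe sets; En1 and Gbx2 did not.

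En1, the second Engrailed gene, read 34.2, 23.6 and 21.8 on WT, VLDLR KO and APOER2 KO and 27.7, 48.2 and 31.9 on DAB1 KO, REELIN KO and APOER2-VLDLR KO. It exceeded the highest bacterial control on only 2 arrays, REELIN KO and APOER2-VLDLR KO, and the classes overlapped, so its log2 difference of 0.22 describes signals at background. Gbx2, a hindbrain-side homeodomain gene of the boundary, read 22.6, 40.6 and 37.7 against 42.2, 36.7 and 42.3 (log2 difference 0.16). WT was the lowest array for Gbx2, and without it the difference was 0.026.

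Pax5, a paired-box factor of the boundary, had 2 probe sets, and only 1454401_at read above background on all arrays. At 1454401_at it read 146.5, 158.3 and 105.3 on the comparison arrays and 41.4, 136.1 and 159.6 on DAB1 KO, REELIN KO and APOER2-VLDLR KO. The DAB1 KO array alone stood low, 2.35-fold below the comparison mean, whereas the 2 other reeler models lay within the range of the comparison arrays or just above it. The class difference of -0.34 rested on that array: without DAB1 KO it was 0.11. At 1421765_at all arrays read 11.9 to 33.6, with REELIN KO highest and the one array above background.

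Pax8, the third paired-box member, read 94.1, 68.3 and 87.4 against 96.7, 91.8 and 96.1 at 1418208_at, a log2 difference of 0.15 with overlapping classes. Its second probe set, 1446561_at, read 13.0, 5.9 and 3.7 against 8.4, 31.8 and 32.9, at or below the bacterial controls except on APOER2-VLDLR KO. Across the 6 probe sets of En1, Gbx2, Pax5 and Pax8 the log2 differences ran from -0.34 to 0.53. The pair En2 and Cnpy1 lay outside that range at all 4 probe sets.

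Other genes of the boundary were taken from lists by role. Of 43 genes, 42 had a probe set and 24 passed the signal filter. None of the 24 passed limma at an adjusted p of 0.05 over all genes, in either direction, where 0.130% of all genes did; 2 had an unadjusted p under 0.05 (11.0% of all genes did), and the lowest adjusted p was 0.414. Their median log2 difference was -0.059, and that of all genes 0.0084. Among the 24, 0 had reeler models entirely below the comparison arrays and 1, Efna2, entirely above (8.67% and 9.04% of all genes, 17.7% in either direction).

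The 7 secreted signals of the boundary, Fgf8, Fgf15, Fgf17, Fgf18, Wnt1, Wnt3a and Wnt8b, all failed the signal filter and read 2.5 to 89.8. Fgf8, the main organiser signal in the embryo, read 2.5 to 5.2 on the 6 arrays, and Fgf8 and Fgf15 stayed under the highest bacterial control on every array. The 3 FGF receptor genes were bright: Fgfr3 had a log2 difference of 0.15, Fgfr1 of -0.14 and Fgfr2 of -0.19. None of them passed the test.

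Of 10 FGF feedback and target genes, 8 passed the filter, with a median of -0.12 and 7 of them below 0, none past the test. Highest were Spry1 (0.23) and Spry2 (-0.017), which encode inhibitors of receptor tyrosine kinase signalling. Lowest were Etv5 (-0.32), an ETS factor induced by FGF, and Spry4 (-0.28). Etv5 read 857.6, 971.2 and 1107 against 874.4, 705.2 and 758.8, so that DAB1 KO lay inside the comparison range. All 8 genes had overlapping classes, where 17.7% of all genes had classes without overlap. Any link between these genes and the Cnpy1 signal was not tested.

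Among 17 measured transcription factors and cofactors, 8 passed the filter, with a median of -0.042. Hes1, a Notch-induced repressor (0.35), and Tle1, a Groucho corepressor (0.17), were highest. Pax6, a paired-box factor also expressed in granule cells (-0.49), and Tle4 (-0.20) were lowest. Pax6 read 245.3, 98.2 and 220.7 against 148.2, 120.9 and 88.9, overlapping through VLDLR KO. Pax3, which did not pass the filter, read 92.3, 90.6 and 92.9 against 77.3, 52.6 and 50.2 without overlap. Also below the filter and without overlap were Otx2, at 63.6, 68.7 and 97.1 against 8.6, 55.5 and 53.0, and Sp8, a zinc finger factor that lay the other way at 27.6, 29.3 and 28.7 against 46.9, 36.3 and 50.9. Without the filter, classes did not overlap for 15.4% of all genes, in either direction. Sp8 on WT and VLDLR KO lay under those arrays' highest bacterial controls, 35.2 and 38.9. So did Otx2 on DAB1 KO, where the highest control read 39.6.

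The relatives of Cnpy1 did not separate the classes. Cnpy2 (-0.12), Cnpy3 (0.11) and Cnpy4 (-0.18), which encode other canopy proteins, had overlapping classes and did not pass. Of the ephrins of the tectum, Efna2 read 117.5, 130.4 and 96.6 against 135.7, 148.9 and 186.8 (0.37, adjusted p = 0.443 by limma), and Efna5 had a log2 difference of 0.0097.

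**Figure D2:**
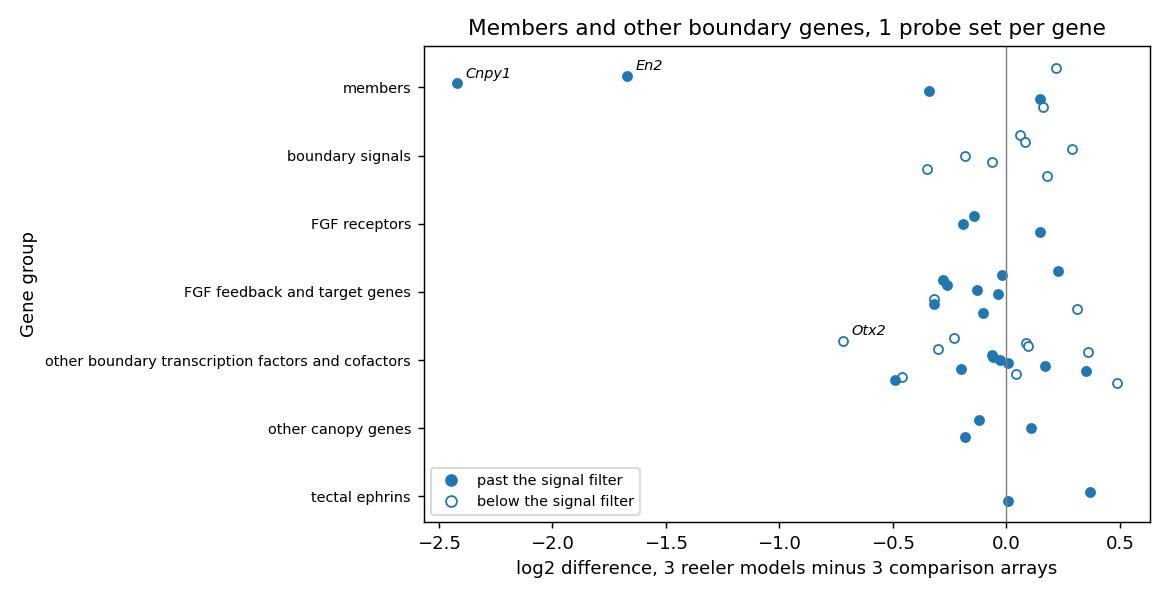
Log2 difference between the 3 reeler models and the 3 comparison arrays for the members and for each group of other boundary genes, 1 point per gene at its brightest probe set; filled points passed the signal filter and open points did not. En2 (-1.67) and Cnpy1 (-2.42) lie at the left, and Otx2 (-0.72), a midbrain factor below the filter, is the next lowest.

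En2 and Cnpy1 are direct neighbours on chromosome 5, with 0 protein-coding genes between them in RefSeq's gene table, and that chromosome also carries Reln. Between Reln and En2 lie 56 protein-coding genes, of which 39 had a probe set. A Reln mutation bred on a mixed background can carry linked DNA of 1 strain along with it, so REELIN KO was set beside the reeler models whose targeted genes lie elsewhere. Any part of linked DNA in the values was not tested, and each genotype has 1 array. REELIN KO was the highest of the 3 reeler models for En2 and for Cnpy1, the latter at each of its 3 probe sets. It exceeded the mean of DAB1 KO and APOER2-VLDLR KO by 0.27 on the log2 scale for En2 and by 0.67, 0.45 and 0.31 at the Cnpy1 probe sets. For all genes that difference had a median of -0.02 and a 5th to 95th percentile of -0.48 to 0.48. The 0.67, at 1437996_s_at, rests in part on the APOER2-VLDLR KO signal of 32.2, just above that array's highest bacterial control. With other pseudocounts it was 0.97 (pseudocount 1) and 0.40 (pseudocount 89.4). Without REELIN KO the class difference was -1.76 for En2 and -2.65 for Cnpy1.

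The genes around the pair had much smaller differences. On each side the 6 nearest measured genes were Speer4a, Dpp6, Speer4b, Paxip1, Htr5a and Insig1 before En2 and Rbm33, Shh, Rnf32, Lmbr1, Mnx1 and Ube3c after Cnpy1. Of these 12, 9 passed the signal filter, and their median log2 difference was -0.044 (0.0084 over all genes). At limma's adjusted p of 0.05, 0 of the 9 passed, where 0.130% of all genes did. Insig1, a sterol sensor and the nearest gene before En2, read 470.5, 533.1 and 460.6 against 454.3, 534.1 and 400.7. Rbm33, which encodes an RNA-binding protein and is nearest after Cnpy1, read 443.2, 747.7 and 475.5 against 472.6, 546.4 and 519.7. Shh, the morphogen that Purkinje cells supply to granule cell progenitors, read 246.6, 249.3 and 291.3 against 253.6, 240.3 and 265.6. All 3 overlapped between classes. Of the 9, only Rnf32 had reeler models entirely below, where 8.67% of all genes did. Rnf32 read 360.4, 375.1 and 390.9 against 209.5, 337.0 and 356.4, and there DAB1 KO alone stood apart.

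**Figure D3:**
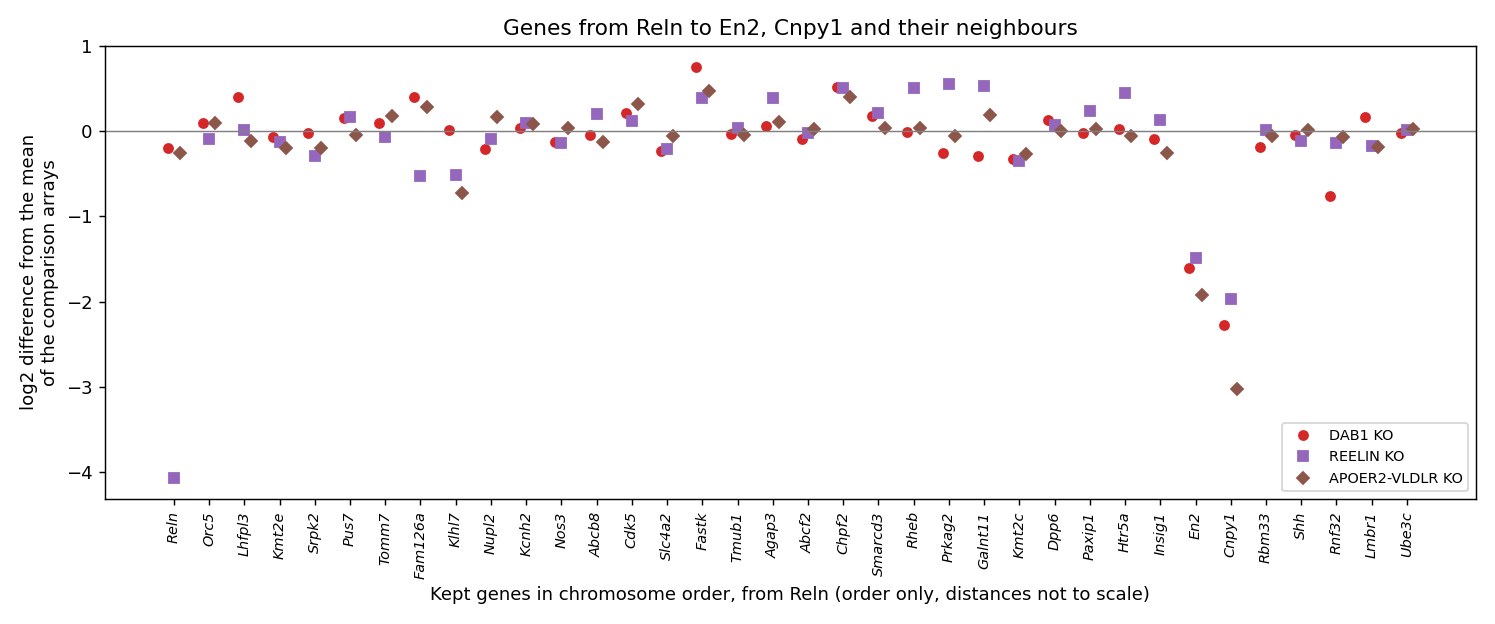
Log2 difference of each reeler model from the mean of the comparison arrays for the genes past the signal filter from Reln to the neighbours of Cnpy1, in chromosome order with distances not to scale. En2 (-1.60, -1.49 and -1.92 for DAB1 KO, REELIN KO and APOER2-VLDLR KO) and Cnpy1 (-2.27, -1.97 and -3.02) stand apart from the genes on either side, and Reln is low on REELIN KO only.

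Along the whole stretch from Reln, 33 other genes passed the filter, and 15 of them (45.5%) read outside the range of the other 5 arrays on REELIN KO, as did 47.3% of all genes. Both En2 and Cnpy1 read inside that range on REELIN KO. Because they were chosen as lower in the reeler models, REELIN KO could leave the range only as the lowest array. The share of all genes is therefore no background for the pair. Chosen after their values were seen, Rheb (4398 against 2903 to 3186), Prkag2 (1055 against 585.2 to 804.5) and Galnt11 (1023 against 566.2 to 804.0) were higher on REELIN KO than on all other arrays and lie close together in the stretch. They were the 3 of 33 above the 95th percentile of all genes for REELIN KO minus the 2 other reeler models. In the other direction 1 of the 33, Fam126a, lay below the 5th percentile at -0.88, a larger size than any of these, with 220.8 on REELIN KO against 313.3 to 447.6.

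The genes whose levels followed En2 and Cnpy1 most closely over the 6 arrays were then listed, by Pearson's r of log2 values, as a description without a test. The 6 points fall into the 2 classes, and r measures shape and not size. For En2 the 6 nearest were Gabra6 (r = 0.9974), Ndufb10 (0.9967), Ltn1 (0.9965), Cbln3 (0.9951), Chka (0.9931) and Cnpy1 (0.9926). For Cnpy1 they were Ltn1 (0.9988), Cbln3 (0.9978), Ndufb10 (0.9971), Fat2 (0.9949), Gabra6 (0.9944) and En2 (0.9926). Gabra6, a GABA-A receptor subunit of granule cells, Cbln3, a cerebellin of granule cells, and Fat2, their protocadherin, had log2 differences of -3.07, -2.74 and -3.21. Ndufb10 (-0.17), a subunit of respiratory complex I, Ltn1 (-0.20), a ubiquitin ligase of stalled ribosomes, and Chka (-0.25), choline kinase, had the same shape at a much smaller size.

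Markers of cerebellar granule cells were lower on the same arrays as the pair. This list was written with their behaviour on these arrays known and is no independent evidence. Of its 16 genes 15 had a probe set and 11 passed the signal filter; all 11 had reeler models entirely below the comparison arrays (8.67% of all genes did), with a median log2 difference of -1.41, and 7 passed limma as lower at an adjusted p of 0.05 over all genes (0.113% of all genes did). Gabra6 (adjusted p = 0.00572 by limma) read 1797, 1248 and 2015 against 185.7, 251.5 and 106.6. The other 6 were Fat2 (-3.21), Cbln3 (-2.74), the transcription factors Neurod1 (-1.92) and Zic1 (-1.63), Cbln1 (-1.41), a synaptic organiser, and Grin2c (-1.15), an NMDA receptor subunit, with adjusted p-values of 0.00572 to 0.0105 by limma. Grm4 (-0.92), Cadps2 (-0.98), Gabrd (-0.90) and Zic4 (-0.52) did not pass. Of the measured genes below the filter, Zic2 (-0.75) and Barhl1 (-0.34) had reeler models entirely below. Barhl2 (-0.34) and Atoh1 (0.098) overlapped between classes, and Atoh1 lay the other way. With no filter the median of the list was -0.98. Gabra6, Cbln3 and Fat2 had the reeler order of En2, with REELIN KO above DAB1 KO. The other genes of the 11 had DAB1 KO above REELIN KO. Relative to the comparison arrays, the mean of the 11 was -1.51 on DAB1 KO, -1.61 on REELIN KO and -1.92 on APOER2-VLDLR KO. The summed signal of the 15 genes was 12873 to 15948 on the comparison arrays and 4349 to 5704 on the reeler models. Fat2 read 36.4 on DAB1 KO and 8.4 on APOER2-VLDLR KO, under those arrays' highest bacterial controls of 39.6 and 31.2. Its log2 difference is therefore a bound more than a level. Fat2 passed the signal filter through the comparison arrays, with a mean of 584 there and 46.0 on the reeler models. The other genes of the 11 stayed above the bacterial controls on all arrays. In a bulk sample fewer granule cells and less RNA per cell cannot be told apart. The labels name frontal cortical lobe only, so the amount of cerebellum in each sample is not known. The part of granule cell content in the En2 and Cnpy1 values was not tested.

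The log2 value of En2 minus the mean of the 11 granule cell genes was nearly level over the arrays. It was -1.49, -1.60 and -1.49 on WT, VLDLR KO and APOER2 KO and -1.61, -1.42 and -1.53 on DAB1 KO, REELIN KO and APOER2-VLDLR KO, and the classes overlapped. Cnpy1 (1437996_s_at) minus the same mean was -1.14, -1.20 and -1.23 against -1.94, -1.56 and -2.30, without overlap. At 1455471_at it was -1.70, -1.54 and -1.65 against -2.11, -1.73 and -2.04, again without overlap, but at 1456127_at it was -1.77, -1.77 and -1.88 against -1.84, -1.60 and -1.76, with overlap. The granule cell mean itself had a log2 difference of -1.68 between classes, so whether Cnpy1 differed by more than that mean depended on the probe set. The absolute offsets depend on the probes and carry no meaning.

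A second cerebellar list, of interneurons and Bergmann glia, was lower in part on the same arrays: its median was -0.37 over 5 genes, and 3 of them, Gdf10 (-1.23), Tfap2b (-0.41) and Lgi2 (-0.37), had reeler models entirely below, where 8.67% of all genes did. None of the 5 passed limma over all genes, and the part of these cells in the values of the pair was not tested. The remaining lists had medians nearer to 0. The 5 Purkinje cell genes past the filter had a median of -0.18 with 1, Car8, entirely below. Their summed signal over 7 measured genes was 8684 to 9100 on comparison arrays and 6824 to 9319 on reeler models, and En2 minus their mean went from -1.96 to -1.50 on comparison arrays to -3.38 to -2.92 on reeler models. Midbrain dopamine neuron genes, from cells that express both Engrailed genes, had a median of -0.048 over 7 genes, and their summed signal was 2176 to 2460 against 2076 to 2396. Th, tyrosine hydroxylase, read 174.1, 200.5 and 200.5 against 229.4, 252.5 and 223.0, without overlap (adjusted p = 0.452 by limma). Nr4a2, a nuclear receptor of these neurons, lay the other way at 354.9, 374.3 and 514.1 against 343.0, 193.3 and 283.8, also without overlap (adjusted p = 0.395 by limma). The thalamus list, a site of Gbx2, had a median of 0.028 over 9 genes, and cerebral cortex genes one of 0.041 over 12. The median was 0.033 over 2 hindbrain genes, -0.016 for the 1 serotonin gene kept and -0.058 over 4 choroid plexus genes. In these 6 lists and the Purkinje list 0 genes passed limma over all genes.

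**Figure D4:**
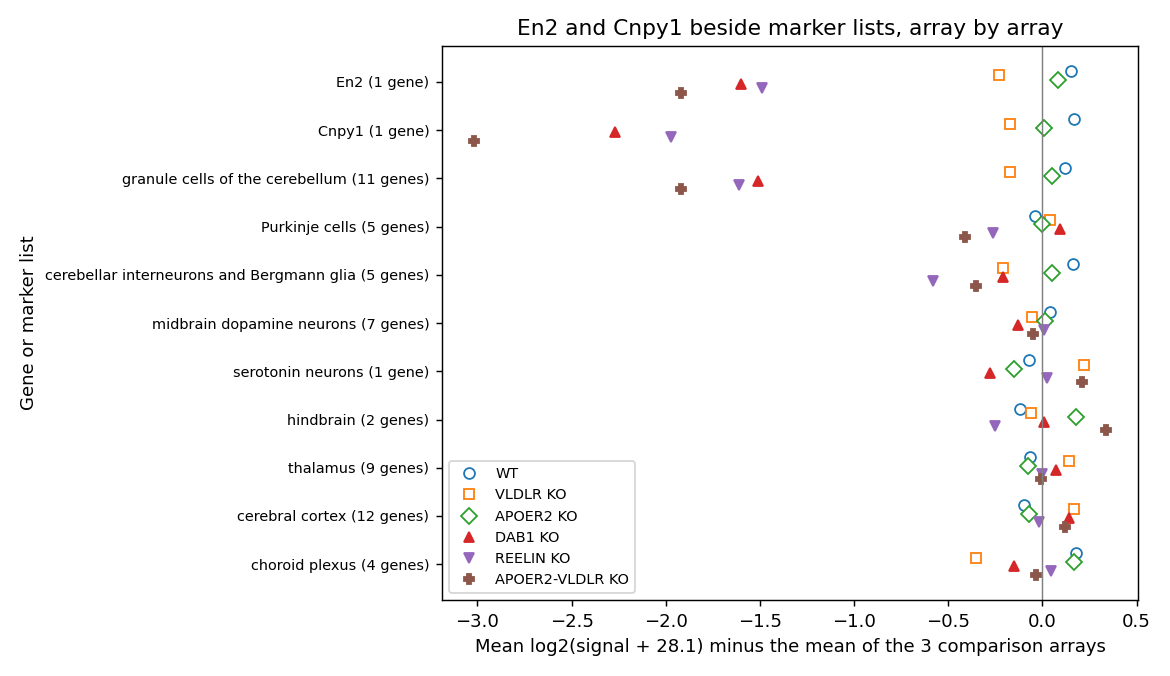
Mean log2(signal + 28.1) of En2, Cnpy1 and each marker list minus the mean of the comparison arrays, with 1 point per array, open for comparison arrays and filled for reeler models. The reeler models sit between -1.92 and -1.49 for En2, between -3.02 and -1.97 for Cnpy1 and between -1.92 and -1.51 for granule cells, and between -0.41 and 0.093 for Purkinje cells.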

How the data were processed

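The authors deposited linear intensity values of 45101 probe sets for each array. MAS5 and Affymetrix Expression Console were used, per the submitters' processing notes. Their versions, and any genome build, were not given in the sources used here. Trimmed means (2% off each end) were 249.4 to 249.5 on all arrays, so the arrays are scaled alike, and median signals were 86.5 to 92.3. The platform annotation names 1 gene for 34958 probe sets, several for 932 and none for 9211. RefSeq's gene table (GRCm38.p6) gave gene order only.

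Each gene took its brightest probe set, with those ending in _x_at last. Of 18193 genes, 11498 had a mean signal of at least 89.0. Signals were analysed as log2(signal + 28.1). One model across all genes set both classes against each other (limma 3.58.1, run under R 4.3.3, prior variance with a trend, Benjamini-Hochberg adjustment); arrays of different genotypes stand in for replicates, so p-values reflect no more than how far these 6 arrays scatter. The model was also run on simulated arrays that took their spread from the fit to the real ones. With 200 genes changed 2-fold it recovered 166 and made 11 false calls. Noise was drawn for each gene alone, so differences between genotypes shared by many genes were not simulated.

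Members, gene lists and tests were chosen with earlier results of these data known. Named genes are the members, the 6 genes nearest in pattern to En2 and to Cnpy1, 6 measured neighbours on each side, and the 2 highest and 2 lowest kept genes of each boundary list with any past the test, and marker genes where a result turns on them. Further genes are named as chosen later or to state a count. Alternatives were other pseudocounts, filters, normalization, probe set rules, no trend, WT alone, a cross covariate and leaving out each array; the values by each of the other Cnpy1 probe sets were added after seeing the data.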

Additional observations from a re-analysis of the deposited data

How the results depend on the processing

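En2 and Cnpy1 were lower in the reeler models under all alternatives run. With a pseudocount of 1 the log2 difference was -1.93 for En2 and -2.89 for Cnpy1, with 89.4 it was -1.29 and -1.84, and with the cross covariate, which rests the difference on APOER2-VLDLR KO alone, -1.92 and -3.02. Cnpy1 was -2.01 by the mean of its probe sets and -2.01 and -1.60 by its other probe sets singly. Leaving out each array gave -1.79 to -1.55 for En2 and -2.65 to -2.12 for Cnpy1 (-1.63 and -2.42 without APOER2 KO, the array that stands apart in sex genes). The same range was 0.09 to 0.32 for En1, -0.61 to 0.11 for Pax5, 0.049 to 0.22 for Pax8 and 0.026 to 0.24 for Gbx2. Pax8 was 0.34 by the mean of its probe sets and 0.0088 with WT alone, where Gbx2 was 0.43. For REELIN KO minus the 2 other reeler models, En1 was 0.68 with a pseudocount of 1.

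Genes past an adjusted p of 0.05 in limma numbered 27 with all probe sets, 9 with the cross covariate, 0 with WT alone (892 at an unadjusted p under 0.05) and 1 to 22 without single arrays. Classes did not overlap for 56.2% of genes with WT alone and 24.2% to 32.3% without single arrays, in place of 17.7%, since fewer arrays overlap less often. No paired analysis was possible because each genotype has 1 array.

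List medians moved by more than 1 SD as follows. With the cross covariate they were -0.26 for FGF feedback genes, 0.054 for other transcription factors, -1.76 for granule cells, -0.40 for Purkinje cells, 0.21 for serotonin neurons and 0.34 for hindbrain. With no filter they were -0.98 for granule cells and -0.30 for hindbrain. With the stricter filter they were -0.00083 for canopy genes, 0.0097 for ephrins, -0.80 for cerebellar interneurons and Bergmann glia and -0.30 for dopamine neurons. By the mean of all probe sets they were 0.04 for canopy genes and -0.20 for interneurons and Bergmann glia, and with WT alone -0.24 for canopy genes and -0.12 for dopamine neurons. Without single arrays they ran from -0.12 to 0.0097 for other transcription factors, -0.18 to -0.02 for canopy genes, -0.45 to -0.16 for interneurons and Bergmann glia and -0.082 to -0.0016 for dopamine neurons. The cause was not tested. Signals of En1, Gbx2 and the second probe sets of Pax5 and Pax8 near the bacterial controls limit what can be said of them.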

Other observations

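Pax5, Otx2 and Wnt3a had their lowest signal on the DAB1 KO array. Pax5 read 41.4 there against 105.3 to 159.6 on the other 5 arrays, Otx2, a midbrain and choroid plexus homeodomain factor, 8.6 against 53.0 to 97.1, and Wnt3a 24.9 against 63.0 to 89.8. They were chosen after their values were seen. DAB1 KO read below each of the other 5 arrays for 15.3% of genes past the signal filter, and Otx2 and Wnt3a did not pass it. Both lay under the highest bacterial control of the DAB1 KO array, 39.6.

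Gdf10, a growth factor gene of Bergmann glia, the radial glia of the cerebellum, read 541.7, 658.0 and 579.3 on WT, VLDLR KO and APOER2 KO and 330.2, 199.1 and 199.4 on DAB1 KO, REELIN KO and APOER2-VLDLR KO. Its log2 difference of -1.23 did not pass limma (adjusted p = 0.0598). The list of cerebellar interneurons and Bergmann glia it belongs to had a median of -0.37 over 5 genes past the filter, 3 of them with reeler models entirely below (8.67% of all genes were) and 0 past an adjusted p of 0.05.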
